A study of Mus musculus with 11 samples.

Results

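The genes described here are 43 mouse genes of the regulated secretory and neurite programme: dense-core granule proteins, synaptic vesicle proteins, the fusion and active zone machinery, stathmins and microtubule proteins, neuronal adhesion molecules and catecholamine enzymes. They come from a fixed list of names, drawn up with earlier results of these data known. All 43 are among the 52661 genes of the expression table. The authors tested 42 of them, in a total of 23378 genes tested. Rims1, an active zone scaffold, was not tested and lay at or under 0.02 RPKM in every group. RPKM counts reads per transcript length and sequencing depth, so levels of different genes can be compared on it. Of the 43 genes, 41 had entries in the splicing table (Map2 and Map1b had none). Of 60127 events that could be tested, 182 lay in 28 of the members.

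The cells were Neuro-2A (N2A), a mouse neuroblastoma line that carries neuronal and catecholaminergic traits, collected 48 h after they were transfected with siRNA pools. Of the 11 libraries, 3 came from control cells given a non-targeting pool (siNT). Fubp1, Khsrp (also called Fubp2) and Rbm38 knockdowns have 2 libraries each, as does the knockdown of both Khsrp and Fubp1, called the double knockdown here. All groups were unedited N2A cells that received the same transfection reagent, and the submitters state that the replicates are biological. Because 1 cell line was used, the values describe that line.

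Neurosecretory cells store peptides and amines in granules whose cores are built from chromogranins and secretogranins, and release them when a SNARE complex of syntaxin, SNAP-25 and synaptobrevin joins vesicle to plasma membrane. Synaptotagmins sense calcium for this step, complexins clamp and assist it, and active zone scaffolds such as RIM and Munc13 place vesicles at the release site. Neuronal transcripts of many of these genes carry short alternative exons, microexons among them, that are included as neurons mature.

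Depth differed between libraries, with a median of 99 to 221 reads per tested event, lowest in the double knockdown. In the authors' deposited table Fubp1 went from 180.1 RPKM in siNT to 27.9 after its own and 19.8 after the double knockdown, Khsrp from 47.0 to 8.06 and 6.77, and Rbm38 from 34.5 to 4.03. The same table put Khsrp at 33.8 RPKM after Rbm38 knockdown (log2 fold change -0.70, FDR 0.0243). The neuronal markers Phox2a, Hand2, Gata3, Elavl3, Elavl4, Isl1 and Prph each stood at 7.95 RPKM or more in every group, from 7.95 (Gata3) to 309.9 (Prph) in siNT in the authors' deposited table. They were not steady. Elavl4, a neuronal RNA-binding protein, stood there at 164 RPKM in siNT, 79.2 after Fubp1, 121 after Khsrp, 71.6 after the double and 127 after Rbm38 knockdown, called lower after Fubp1 (log2 fold change -1.19, FDR 6.17e-08) and double knockdown (log2 fold change -1.44, FDR 3.01e-11). Isl1, a transcription factor of sympathetic neurons, went in the authors' deposited table from 17.3 to 8.11 RPKM in the double (log2 fold change -1.05, FDR 4.20e-11), and Gata3, another such factor, from 7.95 to 16.5 after Fubp1 knockdown (log2 fold change 1.13, FDR 3.16e-05). Of these 7 markers none was called after Khsrp or Rbm38 knockdown. In the authors' deposited table the fibroblast list of 7 markers summed to 1.75 RPKM in siNT and 1.00 to 2.91 in the knockdowns, and the immune list of 3 to 0.79 and 0.39 to 1.90. In siNT 5 of 7 glial, 4 fibroblast and 2 immune markers lay under 0.1 RPKM, among them the glial Sox10 and the fibroblast Twist1 and Col3a1, listed at 0 in every group. Gfap, a glial filament gene, was called higher there after Khsrp (log2 fold change 2.07, FDR 0.035) and double knockdown (log2 fold change 2.57, FDR 6.79e-04). Pdgfra, a growth factor receptor of mesenchyme, was called higher after Fubp1 (log2 fold change 1.97, FDR 1.67e-20) and double knockdown (log2 fold change 2.14, FDR 3.01e-24) in the authors' deposited table. Col1a1, a collagen, was higher in the double (log2 fold change 1.79, FDR 0.00624) and after Rbm38 knockdown (log2 fold change 1.49, FDR 0.04), and Cd68, a lysosomal macrophage marker, in the double (log2 fold change 1.41, FDR 7.00e-07). Of these 4 genes Gfap was highest, at 3.3 RPKM after Khsrp knockdown. These markers moved in the same knockdowns as the members below, and their part in the members' values was not tested. Each expression level is 1 value per group, with no error or number of libraries behind it, and fewer cells of a kind cannot be told apart from less RNA per cell. A level is called here at the authors' FDR under 0.05.

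The members fell most often in the double knockdown. There the authors' deposited table called 19 of 42 lower (45.2%) and 4 higher (9.52%), where 13.7% of all tested genes were lower and 13.2% higher. After Rbm38 knockdown the balance was the other way, with 12 members higher (28.6%, all genes 7.96%) and 3 lower (7.14%, all genes 7.02%). Khsrp knockdown gave 7 higher (16.7%, all genes 3.82%) and 2 lower (4.76%, all genes 4.34%). Fubp1 knockdown gave 8 in each direction (19% each, all genes 12% higher and 10.5% lower). The members are well expressed, and among genes at 5 RPKM or more in siNT or the knockdown, a background chosen after seeing the data, the shares were 18.8% higher and 23% lower in the double, 10.3% and 13.7% after Rbm38, 6.07% and 7.36% after Khsrp and 17.8% and 19.1% after Fubp1 knockdown. Beside that background the Fubp1 counts are close to the share of all genes. The median log2 fold change of the members was -0.114 after Fubp1, -0.132 after Khsrp, -0.365 after the double and 0.049 after Rbm38 knockdown in the authors' deposited table, against medians over all tested genes from -0.003 to 0.023. The members were chosen with earlier results of these data known, so a share above that of all genes is no independent support. All 4 knockdowns share the siNT libraries, so their lists are not independent of each other. The titles number siNT A, siNT B and both Fubp1 libraries 1 to 4, and the remaining libraries, siNT C among them, 8 to 27. With 1 value per group the level calls could not be adjusted for these number sets. For the double, Khsrp and Rbm38 knockdowns a difference between the sets cannot be told apart from the knockdown.

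**Figure D1:**
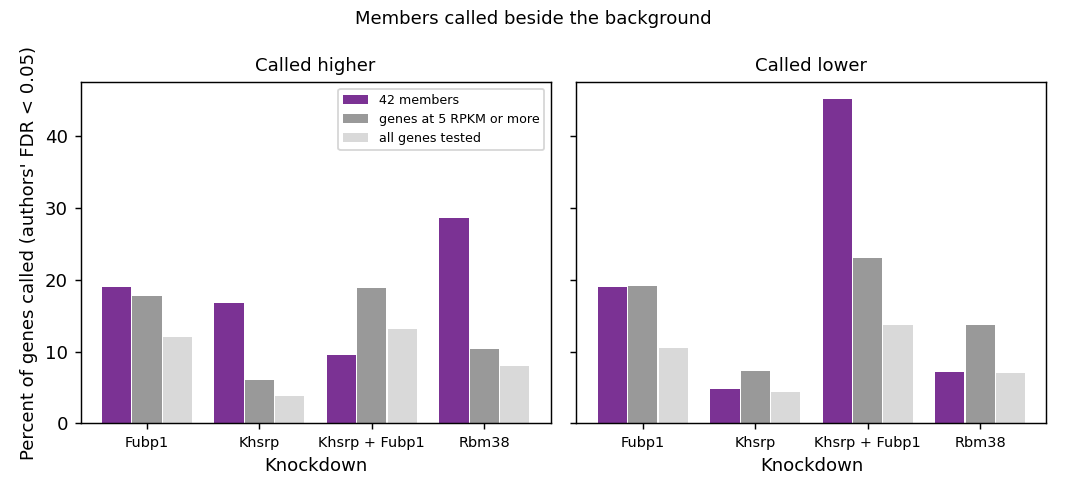
Percent of genes called higher (left) and lower (right) at the authors' FDR under 0.05, by knockdown, for the 42 tested members (purple), genes at 5 RPKM or more in siNT or the knockdown (dark grey) and all 23378 tested genes (light grey). The members' share is furthest above both backgrounds for lower calls in the double knockdown, 45.2% against 23% and 13.7%, and for higher calls after Rbm38 knockdown, 28.6% against 10.3% and 7.96%.

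No member was called in all 4 knockdowns, and 8 were called in none (Vamp2, Dnm1, Stmn2, L1cam, Nsf, Unc13a, Syn1 and Pclo). Wherever called, 12 members were only higher, 15 only lower, and 7 (Syn2, Syt4, Cplx2, Dcx, Syt1, Sv2a and Tubb3) were higher in one knockdown and lower in another. In the siNT cells 37 of the 43 stood at 5 RPKM or more and 11 at 100 RPKM or more.

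**Figure D2:**
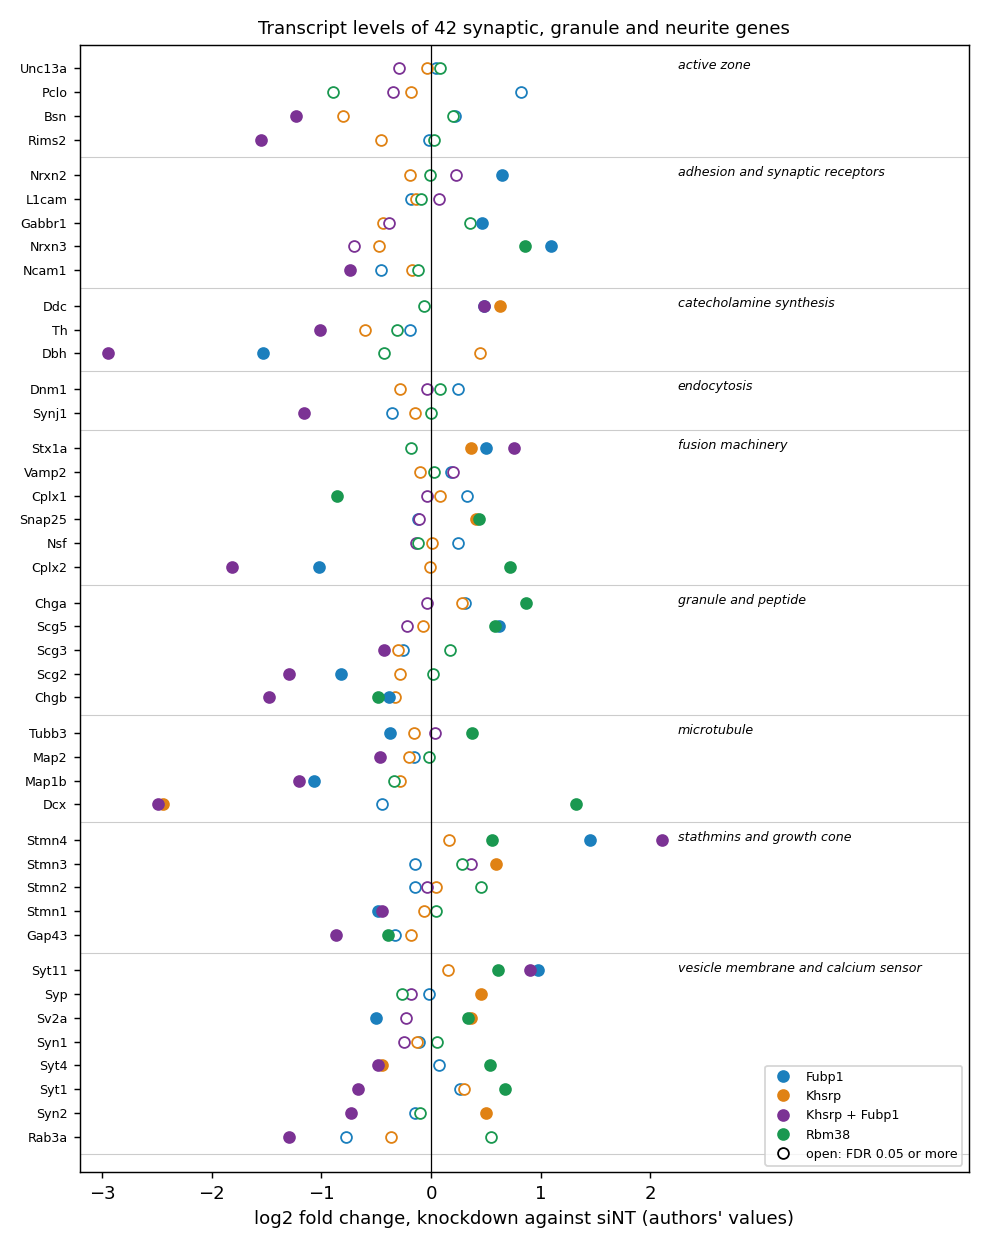
The authors' log2 fold change (x axis) of each knockdown against siNT for the 42 tested members (y axis), grouped by role, with filled points at FDR under 0.05 and open points otherwise. Double-knockdown points (purple) lie furthest left for Dbh (-2.95), Dcx (-2.49) and Cplx2 (-1.81) and furthest right for Stmn4 (2.10), and Rbm38 points (green) are filled on the right for Chga (0.87), Syt1 (0.67) and Cplx2 (0.72).

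The granule proteins did not move together. In the authors' deposited table Chgb, chromogranin B, a granule core protein, stood at 248 RPKM in siNT, 184 after Fubp1, 216 after Khsrp, 92.8 after the double and 189.7 after Rbm38 knockdown. It was called lower in 3 knockdowns, most in the double (log2 fold change -1.48, FDR 2.03e-19), then after Rbm38 (log2 fold change -0.48, FDR 0.0123) and Fubp1 knockdown (log2 fold change -0.38, FDR 0.0467). Scg2, secretogranin II, the precursor of the peptide secretoneurin, stood in the authors' deposited table at 162 RPKM in siNT, 91.1 after Fubp1, 133 after Khsrp, 66.2 after the double and 166 after Rbm38 knockdown. It was lower after Fubp1 (log2 fold change -0.82, FDR 1.65e-06) and double knockdown (log2 fold change -1.29, FDR 6.38e-15). Chga, chromogranin A, the other main core protein, stood in the same table at 73.4 RPKM in siNT, 85.3 after Fubp1, 98.1 after Khsrp, 75.2 after the double and 146 after Rbm38 knockdown, and only the Rbm38 knockdown passed (log2 fold change 0.87, FDR 1.46e-09). Thus Chga and Chgb were called in opposite directions after Rbm38 knockdown.

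Scg3, a granule membrane adaptor that binds chromogranin A, was listed in the authors' deposited table at 165 RPKM in siNT, 157 after Fubp1, 115 after Khsrp, 120.1 after the double and 181 after Rbm38 knockdown. Scg3 was called lower in the double (log2 fold change -0.43, FDR 4.38e-04). Scg5, the 7B2 chaperone of the prohormone convertase PC2, was listed there at 114 RPKM in siNT, 172 after Fubp1, 109 after Khsrp, 100.2 after the double and 178 after Rbm38 knockdown. It was higher after Fubp1 (log2 fold change 0.62, FDR 1.32e-04) and Rbm38 knockdown (log2 fold change 0.58, FDR 6.82e-04) and was not called in the double, where its log2 fold change was -0.22. The summed level of the 5 granule genes was 763 RPKM in siNT, 689 after Fubp1, 671 after Khsrp, 455 after the double and 861 after Rbm38 knockdown.

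The promoters of 2 of these granule genes carry a full cAMP response element, the 8-base palindrome TGACGTCA bound by CREB-family factors. It was found in 4 of 42 member promoter windows in 33 genes (9.52%) and in 588 of 32851 windows of all genes (1.79%), each window running from 250 bases before to 50 after a RefSeq start on GRCm38.p6. The 10 members without a window are Nrxn2, Vamp2, Stmn2, Rims2, Stmn4, Snap25, Stmn1, Ncam1, Syt4 and Gap43. The 4 windows are shown since 3 of their genes (Chgb, Scg2, Th) were called lower in the double knockdown and the fourth (Syn1) in none. Of all 42 tested members 19 were called lower there. Dbh, which had the largest fall, has a window without a match. Rims2, Ncam1, Gap43, Stmn1 and Syt4 were also called lower and had no window to search. A link of the element to the calls was not tested. Capitals mark the element, which begins 72 bases before the start in Chgb, 68 in Scg2, 45 in Th and 159 in Syn1. The windows are chr2:132781392-132781691, plus strand for Chgb, chr1:79439977-79440276, minus strand for Scg2, chr7:142899946-142900245, minus strand for Th and chrX:20920869-20921168, minus strand for Syn1. A match describes the letters only.
Chgb: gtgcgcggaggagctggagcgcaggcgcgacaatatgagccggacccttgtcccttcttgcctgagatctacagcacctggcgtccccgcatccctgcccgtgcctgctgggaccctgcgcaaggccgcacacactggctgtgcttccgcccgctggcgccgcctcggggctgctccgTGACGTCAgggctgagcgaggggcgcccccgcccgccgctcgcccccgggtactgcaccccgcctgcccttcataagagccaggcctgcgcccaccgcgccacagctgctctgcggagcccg
Scg2: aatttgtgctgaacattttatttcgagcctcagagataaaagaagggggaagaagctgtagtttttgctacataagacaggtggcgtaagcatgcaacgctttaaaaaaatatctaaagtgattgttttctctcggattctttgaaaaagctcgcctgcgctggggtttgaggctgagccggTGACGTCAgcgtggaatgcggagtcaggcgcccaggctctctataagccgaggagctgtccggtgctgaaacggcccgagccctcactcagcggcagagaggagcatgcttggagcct
Th: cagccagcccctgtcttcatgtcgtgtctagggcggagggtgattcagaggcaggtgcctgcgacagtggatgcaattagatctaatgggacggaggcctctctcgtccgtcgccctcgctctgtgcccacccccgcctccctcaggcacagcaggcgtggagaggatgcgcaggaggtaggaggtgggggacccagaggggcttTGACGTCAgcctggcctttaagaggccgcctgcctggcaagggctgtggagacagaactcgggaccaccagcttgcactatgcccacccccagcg
Syn1: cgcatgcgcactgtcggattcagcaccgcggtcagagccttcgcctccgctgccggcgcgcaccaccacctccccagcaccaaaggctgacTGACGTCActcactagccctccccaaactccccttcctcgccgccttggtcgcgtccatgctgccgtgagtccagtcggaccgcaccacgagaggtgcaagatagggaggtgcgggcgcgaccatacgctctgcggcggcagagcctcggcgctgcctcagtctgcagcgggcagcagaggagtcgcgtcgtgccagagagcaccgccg

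Catecholamine synthesis runs from tyrosine hydroxylase (Th) through DOPA decarboxylase (Ddc) to dopamine beta-hydroxylase (Dbh), which makes noradrenaline inside the granule. Dbh had the largest fall of all members. In the authors' deposited table it stood at 18.8 RPKM in siNT, 5.91 after Fubp1, 27.4 after Khsrp, 2.75 after the double and 15 after Rbm38 knockdown. Dbh was called lower after Fubp1 (log2 fold change -1.53, FDR 3.86e-13) and double knockdown (log2 fold change -2.95, FDR 8.10e-41). Th was low throughout, at 2.63 RPKM in siNT, 2.3 after Fubp1, 1.82 after Khsrp, 1.3 after the double and 2.34 after Rbm38 knockdown in the authors' deposited table. Th was called lower in the double (log2 fold change -1.01, FDR 8.26e-04). Ddc was listed there at 17.6 RPKM in siNT, 16.7 after Fubp1, 21.7 after Khsrp, 18.9 after the double and 12.7 after Rbm38 knockdown. Ddc was called higher after Fubp1 (log2 fold change 0.48, FDR 0.0489), Khsrp (log2 fold change 0.63, FDR 0.018) and double knockdown (log2 fold change 0.48, FDR 0.0441). Its call after Fubp1 knockdown goes against the RPKM values of the same table, which were lower than in siNT. In the double knockdown the first and last enzymes were therefore called lower and the middle one higher. That Ddc call was close to the threshold (FDR 0.0441), and its RPKM went only from 17.6 to 18.9. Slc18a2, the vesicular monoamine transporter VMAT2, which loads amines into granules and is not a member, stood in the authors' deposited table at 61.4 RPKM in siNT, 25 after Fubp1, 56.8 after Khsrp, 21.3 after the double and 81.9 after Rbm38 knockdown. Slc18a2 was called lower after Fubp1 (log2 fold change -1.34, FDR 3.13e-23) and double knockdown (log2 fold change -1.47, FDR 5.56e-28) and higher after Rbm38 knockdown (log2 fold change 0.50, FDR 6.05e-04).

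Among the vesicle membrane proteins and calcium sensors, 4 of 8 (50%) were called lower in the double knockdown in the authors' deposited table, near the 45.2% of all members, and 1 higher. After Rbm38 knockdown 4 were higher, where 28.6% of all members were, and 0 lower. Syt1, the fast calcium sensor of synaptic vesicles, stood in the authors' deposited table at 49.9 RPKM in siNT, 60.3 after Fubp1, 58.9 after Khsrp, 30.7 after the double and 77.2 after Rbm38 knockdown. It was lower in the double (log2 fold change -0.66, FDR 9.08e-06) and higher after Rbm38 knockdown (log2 fold change 0.67, FDR 8.13e-06). Syt4, a synaptotagmin of granules that binds calcium weakly, was listed there at 79 RPKM in siNT, 86.1 after Fubp1, 53.3 after Khsrp, 53.5 after the double and 106 after Rbm38 knockdown. Syt4 was called lower after Khsrp (log2 fold change -0.44, FDR 0.0389) and double (log2 fold change -0.48, FDR 0.00648) and higher after Rbm38 knockdown (log2 fold change 0.54, FDR 0.00298). Syt11, a synaptotagmin without calcium binding, rose in 3 knockdowns. The authors' deposited table gave it 35.4 RPKM in siNT, 67.5 after Fubp1, 37.2 after Khsrp, 64.2 after the double and 55 after Rbm38 knockdown, with calls after Fubp1 (log2 fold change 0.98, FDR 9.92e-09), double (log2 fold change 0.90, FDR 1.16e-07) and Rbm38 knockdown (log2 fold change 0.61, FDR 0.00134).

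Rab3a, the vesicle GTPase that binds RIM, stood in the authors' deposited table at 14.7 RPKM in siNT, 8.17 after Fubp1, 12.7 after Khsrp, 6.95 after the double and 26 after Rbm38 knockdown. Rab3a was called lower in the double (log2 fold change -1.29, FDR 3.80e-04). Syn2, a synapsin that tethers vesicles to each other, was listed there at 60.2 RPKM in siNT, 55.9 after Fubp1, 76.2 after Khsrp, 32.7 after the double and 49.7 after Rbm38 knockdown. Syn2 was called higher after Khsrp (log2 fold change 0.50, FDR 0.0212) and lower after double knockdown (log2 fold change -0.73, FDR 4.72e-05). Syn1, its relative, showed no call, at 16 RPKM in siNT, 14.8 after Fubp1, 16.9 after Khsrp, 13.5 after the double and 17.5 after Rbm38 knockdown in the authors' deposited table. Sv2a, a vesicle glycoprotein, was listed at 6.75 RPKM in siNT, 5.22 after Fubp1, 9.29 after Khsrp, 5.76 after the double and 9 after Rbm38 knockdown in the authors' deposited table. Sv2a was called lower after Fubp1 (log2 fold change -0.50, FDR 0.0011) and higher after Khsrp (log2 fold change 0.36, FDR 0.0486) and Rbm38 knockdown (log2 fold change 0.34, FDR 0.0486), the last pair close to the threshold. Syp, synaptophysin, a major vesicle membrane protein, was listed in the authors' deposited table at 44.8 RPKM in siNT, 51 after Fubp1, 43.1 after Khsrp, 27.4 after the double and 26.1 after Rbm38 knockdown. Its 1 call, higher after Khsrp knockdown (log2 fold change 0.46, FDR 0.0124), goes against the RPKM values of the same table.

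In the fusion machinery 2 of the 3 SNARE genes were called, both only higher, and the complexins were called in both directions. Stx1a, syntaxin-1A, the plasma membrane SNARE, stood in the authors' deposited table at 28.7 RPKM in siNT, 31.7 after Fubp1, 41.8 after Khsrp, 50.3 after the double and 31 after Rbm38 knockdown. Stx1a was called higher after Fubp1 (log2 fold change 0.50, FDR 5.16e-04), Khsrp (log2 fold change 0.36, FDR 0.0454) and double knockdown (log2 fold change 0.75, FDR 2.45e-08). Snap25, its partner at the plasma membrane, was listed there at 118 RPKM in siNT, 105 after Fubp1, 158 after Khsrp, 115 after the double and 162 after Rbm38 knockdown. Snap25 was called higher after Khsrp (log2 fold change 0.41, FDR 0.0146) and Rbm38 knockdown (log2 fold change 0.43, FDR 0.00438). Vamp2, the vesicle SNARE synaptobrevin-2, was not called, at 28.8 RPKM in siNT, 31.2 after Fubp1, 29.2 after Khsrp, 35.4 after the double and 32.4 after Rbm38 knockdown in the authors' deposited table. Nsf, the ATPase that takes SNARE complexes apart, was not called either, at 47 RPKM in siNT, 57 after Fubp1, 44.3 after Khsrp, 42.5 after the double and 43.9 after Rbm38 knockdown in that deposited table of the authors.

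Cplx2, complexin-2, stood in the authors' deposited table at 16.1 RPKM in siNT, 7.5 after Fubp1, 17.6 after Khsrp, 4.99 after the double and 29.3 after Rbm38 knockdown. It was lower after Fubp1 (log2 fold change -1.02, FDR 1.30e-09) and double knockdown (log2 fold change -1.81, FDR 9.10e-28) and higher after Rbm38 knockdown (log2 fold change 0.72, FDR 2.42e-05). Cplx1, complexin-1, was listed in the authors' deposited table at 98.3 RPKM in siNT, 116 after Fubp1, 113 after Khsrp, 104 after the double and 60.5 after Rbm38 knockdown and was called in 1 knockdown, lower after Rbm38 (log2 fold change -0.85, FDR 5.96e-06). After Rbm38 knockdown the 2 complexins were thus called in opposite directions.

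Of the endocytic pair, Synj1, synaptojanin-1, a lipid phosphatase that uncoats vesicles, stood in the authors' deposited table at 23.3 RPKM in siNT, 19.8 after Fubp1, 19.4 after Khsrp, 11.6 after the double and 21.2 after Rbm38 knockdown. Synj1 was called lower in the double (log2 fold change -1.16, FDR 1.79e-13). Dnm1, dynamin-1, which pinches vesicles off, was not called, at 17.1 RPKM in siNT, 21.8 after Fubp1, 13.4 after Khsrp, 17.4 after the double and 18.6 after Rbm38 knockdown in the authors' deposited table. At the active zone Rims2, RIM2, the scaffold that joins Rab3 and Munc13, was listed in the authors' deposited table at 33.1 RPKM in siNT, 31.1 after Fubp1, 24.4 after Khsrp, 11.5 after the double and 35.2 after Rbm38 knockdown. Rims2 was called lower in the double (log2 fold change -1.55, FDR 1.01e-18). Unc13a, Munc13-1, the priming factor, was not called, at 50.4 RPKM in siNT, 48.1 after Fubp1, 56.8 after Khsrp, 43.9 after the double and 57.4 after Rbm38 knockdown in the authors' deposited table. Bsn, bassoon, was listed at 1.13 RPKM in siNT, 1.24 after Fubp1, 0.8 after Khsrp, 0.64 after the double and 1.79 after Rbm38 knockdown in the authors' deposited table. Bsn was called lower in the double (log2 fold change -1.23, FDR 9.74e-04). Pclo, piccolo, stayed at or under 0.02 RPKM in every group.

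Stathmins bind tubulin dimers and destabilise microtubules, and Gap43 marks growth cones. Stmn4 had the largest rise of any member. The authors' deposited table gave it 22.8 RPKM in siNT, 60.9 after Fubp1, 28.9 after Khsrp, 104 after the double and 32.5 after Rbm38 knockdown, called after Fubp1 (log2 fold change 1.45, FDR 1.05e-20), double (log2 fold change 2.10, FDR 1.12e-43) and Rbm38 knockdown (log2 fold change 0.56, FDR 0.00219). Stmn1, the most abundant member, was listed there at 1200.0 RPKM in siNT, 856 after Fubp1, 1156 after Khsrp, 904 after the double and 1285 after Rbm38 knockdown. Stmn1 was called lower after Fubp1 (log2 fold change -0.49, FDR 0.0111) and double knockdown (log2 fold change -0.45, FDR 0.0174). Stmn3 was listed in the authors' deposited table at 187 RPKM in siNT, 172 after Fubp1, 276 after Khsrp, 224 after the double and 225 after Rbm38 knockdown. Stmn3 was called higher after Khsrp knockdown (log2 fold change 0.59, FDR 0.0389). Stmn2, also known as SCG10, was not called, at 237 RPKM in siNT, 222 after Fubp1, 231 after Khsrp, 224 after the double and 312 after Rbm38 knockdown in the authors' deposited table. Gap43 stood there at 203 RPKM in siNT, 158 after Fubp1, 180.3 after Khsrp, 113 after the double and 161 after Rbm38 knockdown. Gap43 was called lower in the double (log2 fold change -0.87, FDR 5.28e-09) and after Rbm38 knockdown (log2 fold change -0.39, FDR 0.0295). The stathmin family thus held a member that rose and a member that fell in the same 2 knockdowns, Fubp1 and double.

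Map1b, a microtubule-associated protein of growing axons, was listed in the authors' deposited table at 288 RPKM in siNT, 134 after Fubp1, 246 after Khsrp, 132 after the double and 240.3 after Rbm38 knockdown. Map1b was called lower after Fubp1 (log2 fold change -1.06, FDR 1.96e-05) and double knockdown (log2 fold change -1.21, FDR 6.74e-07). Map2, its dendritic counterpart, stood at 61.2 RPKM in siNT, 51.4 after Fubp1, 56.5 after Khsrp, 43.3 after the double and 66.3 after Rbm38 knockdown in the authors' deposited table. Map2 was called lower in the double (log2 fold change -0.46, FDR 0.0153). Tubb3, the neuronal beta-tubulin, was listed in the authors' deposited table at 386 RPKM in siNT, 278 after Fubp1, 382 after Khsrp, 425 after the double and 563 after Rbm38 knockdown. Tubb3 was called lower after Fubp1 (log2 fold change -0.37, FDR 0.0423) and higher after Rbm38 knockdown (log2 fold change 0.37, FDR 0.0494), both close to the threshold. Dcx, doublecortin, a marker of migrating neuroblasts, was near the floor at 0.11 RPKM in siNT, 0.09 after Fubp1, 0.04 after Khsrp, 0.04 after the double and 0.26 after Rbm38 knockdown in the authors' deposited table. It was called lower after Khsrp (log2 fold change -2.44, FDR 0.00102) and double (log2 fold change -2.49, FDR 7.29e-04) and higher after Rbm38 knockdown (log2 fold change 1.33, FDR 0.0223), at levels where few reads stand behind a value.

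Of the adhesion molecules and receptors, Ncam1, the neural cell adhesion molecule, stood in the authors' deposited table at 63.9 RPKM in siNT, 45.4 after Fubp1, 56.6 after Khsrp, 39.5 after the double and 61.7 after Rbm38 knockdown. Ncam1 was called lower in the double (log2 fold change -0.74, FDR 6.21e-04). L1cam, an adhesion molecule of growing axons, was not called in any knockdown, at 66.5 RPKM in siNT, 53.8 after Fubp1, 65.6 after Khsrp, 70.7 after the double and 65.1 after Rbm38 knockdown in the authors' deposited table. Nrxn2, a presynaptic neurexin, was listed there at 23.1 RPKM in siNT, 35.6 after Fubp1, 19.8 after Khsrp, 20.2 after the double and 19.6 after Rbm38 knockdown. Nrxn2 was called higher after Fubp1 knockdown (log2 fold change 0.64, FDR 0.0244). Nrxn3 was listed in the authors' deposited table at 0.8 RPKM in siNT, 1.64 after Fubp1, 0.63 after Khsrp, 0.5 after the double and 1.01 after Rbm38 knockdown. Nrxn3 was called higher after Fubp1 (log2 fold change 1.09, FDR 0.0013) and Rbm38 knockdown (log2 fold change 0.86, FDR 0.0255). Gabbr1, the ligand-binding subunit of the GABA-B receptor, was listed in the authors' deposited table at 19.4 RPKM in siNT, 28 after Fubp1, 17.4 after Khsrp, 9.17 after the double and 16.4 after Rbm38 knockdown. Gabbr1 was called higher after Fubp1 knockdown (log2 fold change 0.46, FDR 0.0232). In the double its RPKM was 9.17 against 19.4 in siNT while the log2 fold change in the authors' deposited table was -0.38, so the 2 columns differ in size. Gabbr2, which carries the receptor to the cell surface, lay at or under 0.01 RPKM in every group.

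Other genes of the same pathways came from lists of release (36 tested), granule (10), neurite (20) and transmitter genes (12). In the double knockdown the authors' deposited table called 11 release (30.6%), 4 granule (40%), 5 neurite (25%) and 2 transmitter genes (16.7%) lower, where 13.7% of all tested genes and 23% of those at 5 RPKM or more were lower. The list shares are over all tested genes of a list, while the shares of expressed genes are over genes at 5 RPKM or more. In siNT 12 of 38 release, 2 of 11 granule, 6 of 22 neurite and 7 of 12 transmitter genes lay under 0.1 RPKM. The list shares are therefore not directly comparable with those of expressed genes. Higher in the double were 5 release (13.9%), 3 granule (30%), 2 neurite (10%) and 0 transmitter genes, beside 13.2% of all and 18.8% of expressed genes. After Rbm38 knockdown 7 release (19.4%), 4 granule (40%), 5 neurite (25%) and 2 transmitter genes (16.7%) were called higher in the authors' deposited table. The shares higher were 7.96% of all genes and 10.3% of expressed genes. In the same order 1 (2.78%), 0, 0 and 0 were lower, beside 7.02% of all and 13.7% of expressed genes. Fubp1 knockdown gave 8 higher (22.2%) and 1 lower (2.78%) release genes and 1 (10%) and 3 (30%) granule genes. It gave 2 and 2 neurite (10% each) and 0 and 1 (8.33%) transmitter genes. Of all genes 12% were higher and 10.5% lower after it, and of expressed genes 17.8% and 19.1%. Khsrp knockdown gave 2 higher (5.56%) and 4 lower (11.1%) release genes and 1 and 1 granule genes (10% each). It gave 2 (10%) and 3 (15%) neurite and 0 and 0 transmitter genes. Of all genes 3.82% were higher and 4.34% lower after it, and of expressed genes 6.07% and 7.36%. Mapt, the axonal microtubule protein tau, stood in the authors' deposited table at 71.3 RPKM in siNT, 55.8 after Fubp1, 47 after Khsrp, 30 after the double and 63.5 after Rbm38 knockdown. Mapt was called lower in the double (log2 fold change -1.39, FDR 2.31e-13) and after Khsrp knockdown (log2 fold change -0.61, FDR 0.0091). Resp18, a granule protein of endocrine cells, was listed there at 17.6 RPKM in siNT, 8.59 after Fubp1, 50.1 after Khsrp, 29.2 after the double and 53.2 after Rbm38 knockdown. Resp18 was called lower after Fubp1 (log2 fold change -0.86, FDR 9.58e-04) and higher after Khsrp (log2 fold change 1.39, FDR 4.08e-09), double (log2 fold change 0.60, FDR 0.0184) and Rbm38 knockdown (log2 fold change 1.42, FDR 8.94e-10). Vgf, a granule peptide precursor, was listed in the authors' deposited table at 123 RPKM in siNT, 39.3 after Fubp1, 118 after Khsrp, 66 after the double and 112 after Rbm38 knockdown. Vgf was called lower after Fubp1 (log2 fold change -1.54, FDR 1.64e-04) and double knockdown (log2 fold change -1.12, FDR 0.00655).

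Splicing is given as PSI (percent spliced in), which states how often an exon is included, an intron kept or a splice site used. An event was called at an adjusted p under 0.05 over all 60127 events (limma on the log2 odds of inclusion) and a change of at least 10 PSI points. The 182 member events were 76 cassette exons, 9 microexons of 27 nt or less, 77 retained introns and 20 alternative splice sites, 12 at the 3' and 8 at the 5' end of an intron. The double knockdown had 19 member calls in 8 genes, where 6.29% of all events were called. Of these 4 were higher and 15 lower, beside 1.68% and 4.61% of all events. Fubp1 knockdown had 4, all lower, where 0.910% of all events were called, 0.228% higher and 0.682% lower. Rbm38 knockdown had 5, of which 4 were higher, where 0.181% of all events were called, 0.145% higher and 0.0366% lower. Khsrp knockdown had 0 (0.0482% of all events), with 27 at an unadjusted p under 0.05, and 0 also in the limma fit without weights. The limma fit without weights made 19 member calls in the double, where it called 6.37% of all events, and 0 in the other 3 knockdowns.

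The titles hold 2 sets of library numbers, 1 to 4 (siNT A and B, both Fubp1 libraries) and 8 to 27 (the remaining 7, siNT C among them), and what the numbers stand for is not stated. Differences are therefore also given within a set, Fubp1 against siNT A and B and the others against siNT C. All 28 member calls against siNT kept their direction within the set, and 25 kept 10 points or more. In all 28 the PSI of the knockdown libraries did not overlap the siNT libraries. The calls were made on these same libraries, so such counts follow largely from the call and are no separate support. They were not taken over the called events of other genes. With a term for the library set the member calls numbered 5 after Fubp1 (0.740% of all events called), 0 after Khsrp (0.0116%), 5 in the double (2.78%) and 1 after Rbm38 knockdown (0.0216%). In the double 5 of 182 is 2.75%, so with that term the members' share was close to that of all events. Without it 10.4% of member events were called beside 6.29%. Some of those 19 calls share a junction or skipping reads, as described below, so they are not 19 separate observations. No share was corrected for this. Median reads per event were also higher for member events than for all tested events in every library. In siNT A the medians were 319.5 and 171, and in double B 103.5 and 99. No share was set beside a background matched for depth or event type, and the part of either in the calls was not tested. Of the 19 calls in the double, 7 held in each of the 11 fits that left out 1 library. None of the 4 Fubp1 and 5 Rbm38 calls held in all 11.

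The 9 tested member microexons gave 4 of the 19 calls in the double, all lower, and 3 of the 5 after Rbm38 knockdown, all higher. Each of these Rbm38 calls held in at most 1 of the 11 leave-one-out fits. The share called among all 478 tested microexons was not worked out. The counts therefore do not set the members apart from other microexons. The called microexons of more than 3 nt are shown first, with the exon in capitals and 30 bases of the neighbouring exons in lower case, as in the GENCODE vM21 transcripts (GRCm38). All are coding. The positions are chr16:90971564-90971587, minus strand, exon 13 of 32 for Synj1, chrX:73855652-73855663, minus strand, exon 28 of 29 for the 12-nt and chrX:73867022-73867036, minus strand, exon 2 of 27 for the 15-nt exon of L1cam.
Synj1 24 nt: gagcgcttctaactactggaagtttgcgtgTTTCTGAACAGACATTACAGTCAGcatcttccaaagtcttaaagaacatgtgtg
L1cam 12 nt: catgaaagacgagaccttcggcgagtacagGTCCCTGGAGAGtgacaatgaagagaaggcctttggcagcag
L1cam 15 nt: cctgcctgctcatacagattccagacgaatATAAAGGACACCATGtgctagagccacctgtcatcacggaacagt

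The Synj1 24-nt microexon changed most. Its PSI was 78.2%, 76.9% and 74.4% in the siNT libraries, 55.7% and 55.6% after Fubp1, 52.6% and 57.3% after Khsrp, 9.4% and 7.5% after the double and 92% and 98.5% after Rbm38 knockdown, with 82 to 275 reads per library. The mean fell from 76.5% ± 1.9 (SD, n = 3) to 8.5% ± 1.4 (SD, n = 2) in the double (-68 points, -65.9 points within the library set, log2 odds difference -5.05 ± 0.59 (SE), limma adjusted p = 0.000323), and the libraries did not overlap. The call held in all 11 leave-one-out fits, with adjusted p up to 0.0115, and with the library set term (limma adjusted p = 0.00518). Each single knockdown lay between, lower than siNT by -20.8 points (limma adjusted p = 0.0673) for Fubp1 and -21.6 points (limma adjusted p = 0.166) for Khsrp, neither of which passed the threshold. The double also lay below Fubp1 knockdown by -47.2 points (limma adjusted p = 0.00615) and below Khsrp knockdown by -46.4 points (limma adjusted p = 0.00564). On the log2 odds scale the departure from the sum of both single effects was -2.21 ± 0.68 (SE; limma adjusted p = 0.412). After Rbm38 knockdown inclusion was higher (18.8 points, 20.9 points within the library set, log2 odds difference 3.12 ± 0.50 (SE), limma adjusted p = 0.0424). That call was not kept in any of the 11 leave-one-out fits (adjusted p up to 0.223 in limma) nor with the library set term (limma adjusted p = 0.34).

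Further events next to this exon changed in the double. The exon before the microexon has a 3' splice site that adds 9 nt, with PSI of 1.9%, 16.3% and 8.6% in the siNT libraries, 14.1% and 27.8% after Fubp1, 12.1% and 26% after Khsrp, 59.7% and 80.6% after the double and 1.4% and 9% after Rbm38 knockdown. It rose in the double (61.3 points, 61.6 points within the library set, log2 odds difference 4.72 ± 0.95 (SE), limma adjusted p = 0.00931). The 2532-nt intron before that exon had PSI of 1.9%, 5.8% and 0% in the siNT libraries, 5.3% and 10.8% after Fubp1, 16.2% and 2.7% after Khsrp, 29.1% and 52.6% after the double and 1.4% and 2% after Rbm38 knockdown, higher in the double (38.3 points, 40.8 points within the library set, log2 odds difference 4.61 ± 1.09 (SE), limma adjusted p = 0.0216). These values rest on 37 to 139 and 23 to 147 reads per library. The first call was lost without either double-knockdown library (limma adjusted p up to 0.066) and the second without any siNT or either double-knockdown library (up to 0.11). Neither passed with the library set term (limma adjusted p = 0.148 and 0.0691). The 9-nt site and the intron share a junction and are not independent measurements. In the authors' deposited table Synj1 was also lower in level in the double, at 11.6 RPKM against 23.3 in siNT.

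The L1cam 12-nt exon, which lies in the part encoding the cytoplasmic tail and is known as a neuronal exon, had PSI of 51.1%, 55.6% and 55.1% in the siNT libraries, 54.5% and 53.6% after Fubp1, 42.2% and 43% after Khsrp, 35% and 32.6% after the double and 69.1% and 65% after Rbm38 knockdown on 701 to 1261 reads. It was lower in the double (-20.1 points, -21.3 points within the library set, log2 odds difference -1.21 ± 0.13 (SE), limma adjusted p = 0.00015), a call that held in all 11 leave-one-out fits and with the library set term (limma adjusted p = 0.00473). Khsrp libraries lay below siNT and Fubp1 libraries within its range, and the double was lower than Fubp1 knockdown by -20.2 points (limma adjusted p = 0.000903). It was higher after Rbm38 knockdown (13.1 points, 12 points within the library set, log2 odds difference 0.81 ± 0.12 (SE), limma adjusted p = 0.0324), which held in 1 of 11 leave-one-out fits (limma adjusted p up to 0.324) and not with the library set term (0.44). The L1cam 15-nt exon, the second neuronal exon of the gene, had PSI of 87.9%, 85% and 79.7% in the siNT libraries, 67.5% and 72.3% after Fubp1, 70.5% and 61.8% after Khsrp, 64.8% and 67.3% after the double and 89.2% and 85.6% after Rbm38 knockdown. All 3 knockdowns of Fubp1, Khsrp or both lay below every siNT library, and the double was called (-18.2 points, -13.7 points within the library set, log2 odds difference -1.50 ± 0.26 (SE), limma adjusted p = 0.0038), though not with the library set term (limma adjusted p = 0.204). L1cam levels were not called in any knockdown, so these are changes of isoform at a level without a call.

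The Ncam1 3-nt microexon, the AAG triplet at chr9:49531974-49531976, minus strand, exon 14 of 20, had PSI of 70.3%, 74.4% and 72.9% in the siNT libraries, 80.7% and 83% after Fubp1, 69.7% and 70.5% after Khsrp, 60.8% and 63.3% after the double and 82% and 85.6% after Rbm38 knockdown. It was lower in the double (-10.5 points, -10.9 points within the library set, log2 odds difference -0.72 ± 0.16 (SE), limma adjusted p = 0.017) and higher after Rbm38 knockdown (11.3 points, 10.9 points within the library set, log2 odds difference 0.96 ± 0.15 (SE), limma adjusted p = 0.0394). The former held in 8 of 11 leave-one-out fits and was lost without siNT B or either double-knockdown library (limma adjusted p up to 0.225), and the latter held in 1. Neither passed with the library set term (limma adjusted p = 0.13 and 0.415). Fubp1 libraries also lay above siNT, at 9.3 points (limma adjusted p = 0.0855), and the double was lower than Fubp1 knockdown by -19.8 points (limma adjusted p = 0.00255). A 3-nt alternative 3' splice site listed for the same flanking exons had similar PSI, furthest from the microexon in double B (56.4% against 63.3%). It was lower in the double by -13.1 points (limma adjusted p = 0.0215). Both entries describe a 3-nt gain, at different deposited positions and on 855 (microexon) and 536 reads in siNT A. Whether they read the same junctions was not tested, so they are not taken as separate observations.

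The 5 other member microexons were not called in the limma fit. The authors' deposited table of event calls marks 1 of them, the Nrxn2 27-nt exon, after Fubp1 and double knockdown. The Nrxn2 27-nt exon had PSI of 83.5%, 81.4% and 76.2% in the siNT libraries, 95.5% and 95.6% after Fubp1, 89.7% and 75.4% after Khsrp, 94.7% and 95.4% after the double and 96.8% and 88.1% after Rbm38 knockdown on 28 to 76 reads, and its difference after Fubp1 knockdown was 15.2 points (limma adjusted p = 0.247). Dnm1 (12 nt) and Unc13a (6 nt) were included at 91.6% to 97.8% in every library, Rims2 (12 nt) at 2% to 16% and Ncam1 (15 nt) at 0.7% to 6.8%.

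**Figure D3:**
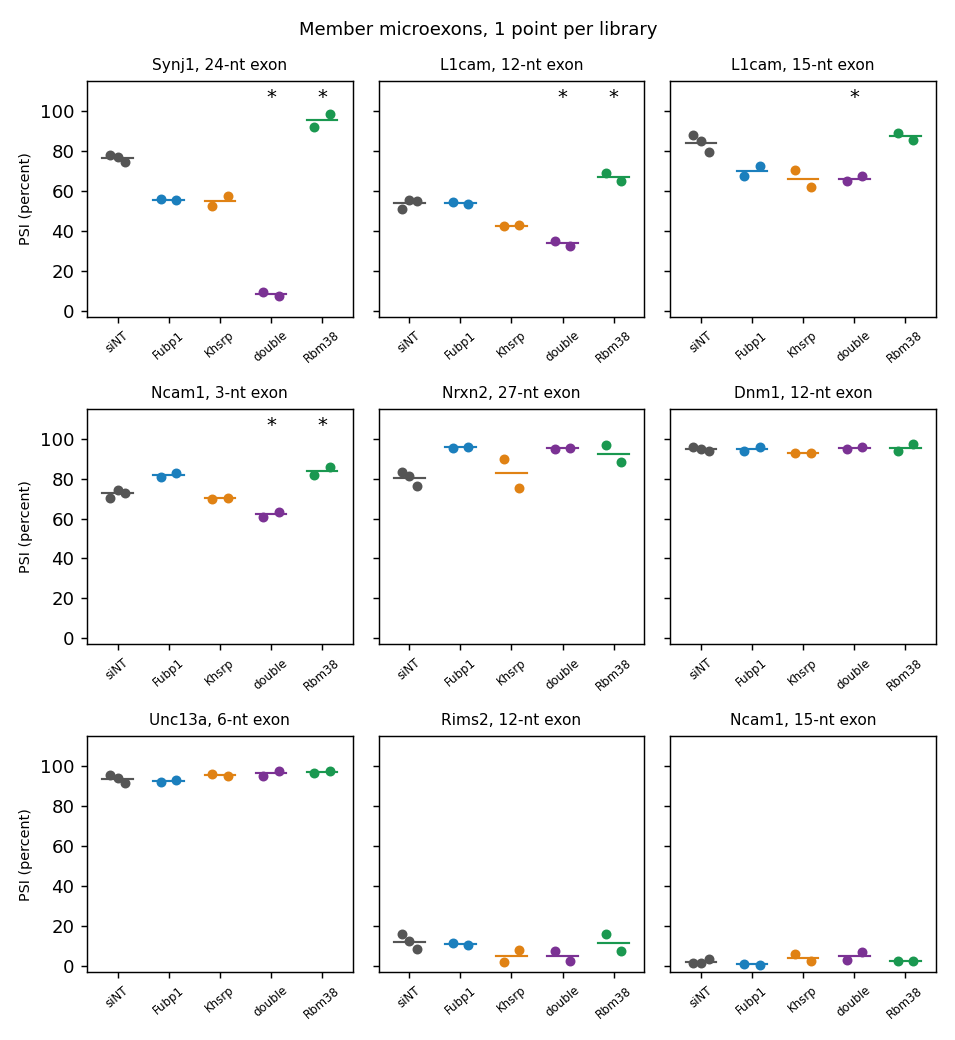
PSI in percent (y axis) of the 9 tested member microexons in each of the 11 libraries (points, by siRNA pool on the x axis), with the group mean as a line and an asterisk for a call against siNT. Synj1 falls to 9.4% and 7.5% in the double and reaches 92% and 98.5% after Rbm38 knockdown, while the exons of Dnm1 and Unc13a stay at 91.6% or more throughout.

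The 6908-nt Nrxn2 intron that ends at the 27-nt exon was called in 3 knockdowns. Its PSI was 86.9%, 85% and 82% in the siNT libraries, 62.5% and 66.7% after Fubp1, 70.3% and 58.8% after Khsrp, 49.1% and 46.1% after the double and 56.7% and 47.1% after Rbm38 knockdown on 95 to 273 reads. It was lower after Fubp1 (-20 points, -21.3 points within the library set, log2 odds difference -1.63 ± 0.28 (SE), limma adjusted p = 0.0173), double (-37 points, -34.4 points within the library set, log2 odds difference -2.58 ± 0.32 (SE), limma adjusted p = 0.000443) and Rbm38 knockdown (-32.7 points, -30.1 points within the library set, log2 odds difference -2.34 ± 0.29 (SE), limma adjusted p = 0.0101). Khsrp libraries also lay below every siNT library, by -20.1 points (limma adjusted p = 0.166), which did not pass. The double call held in all 11 leave-one-out fits. The Fubp1 call was lost without siNT A, siNT B or either Fubp1 library (limma adjusted p up to 0.171) and the Rbm38 call without siNT A, siNT B or Rbm38 B (up to 0.104). With the library set term the Fubp1 and double calls passed (limma adjusted p = 0.0333 and 0.0249) and the Rbm38 call did not (0.368). The table lists no exon inside this intron. The 27-nt exon after it is shown in capitals (chr19:6488784-6488810, plus strand, exon 12 of 23).
Nrxn2 27 nt: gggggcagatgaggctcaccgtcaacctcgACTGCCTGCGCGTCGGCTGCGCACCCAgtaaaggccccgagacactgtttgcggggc

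A 151-nt coding exon of Gabbr1 (chr17:37067214-37067364, plus strand, exon 15 of 23) was the largest gain after Rbm38 knockdown. Its PSI was 55.7%, 56.9% and 44.1% in the siNT libraries, 61.7% and 59.1% after Fubp1, 33.2% and 37.3% after Khsrp, 44.3% and 51% after the double and 84.4% and 87.8% after Rbm38 knockdown on 138 to 532 reads. Both Rbm38 libraries lay above all others (33.9 points, 42.1 points within the library set, log2 odds difference 2.38 ± 0.24 (SE), limma adjusted p = 0.0037). The call held with the library set term (limma adjusted p = 0.0194) and was lost without Rbm38 A (limma adjusted p = 0.0644). The length of 151 nt is not a multiple of 3, so skipping shifts the reading frame. The siNT libraries were themselves spread, with C below A and B.
Gabbr1 151 nt: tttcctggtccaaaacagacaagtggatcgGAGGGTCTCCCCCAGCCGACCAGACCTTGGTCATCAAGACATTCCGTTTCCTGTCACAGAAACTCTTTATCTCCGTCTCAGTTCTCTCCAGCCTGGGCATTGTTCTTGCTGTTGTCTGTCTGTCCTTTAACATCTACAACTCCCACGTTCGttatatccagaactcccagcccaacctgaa

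A pair of adjacent coding exons of Scg3, of 53 nt (chr9:75682938-75682990, minus strand, exon 2 of 7) and 46 nt (chr9:75682274-75682319, minus strand, exon 3 of 12), share the same outer splice sites in the event table. Neither length is a multiple of 3, and together they add 99 nt. The 53-nt exon had PSI of 86.5%, 83.5% and 85.6% in the siNT libraries, 76.4% and 73.9% after Fubp1, 86.5% and 85.6% after Khsrp, 64.2% and 67.1% after the double and 88.7% and 88.3% after Rbm38 knockdown on 923 to 2656 reads, lower after Fubp1 (-10.1 points, -9.9 points within the library set, log2 odds difference -0.91 ± 0.12 (SE), limma adjusted p = 0.00489) and double knockdown (-19.5 points, -19.9 points within the library set, log2 odds difference -1.60 ± 0.13 (SE), limma adjusted p = 2.8e-05). For the 46-nt exon the PSI was 87.4%, 84.9% and 86.9% in the siNT libraries, 78.5% and 76.5% after Fubp1, 86.6% and 85.8% after Khsrp, 63% and 68.9% after the double and 89.2% and 87.2% after Rbm38 knockdown, lower in the double (-20.5 points, -21 points within the library set, log2 odds difference -1.73 ± 0.15 (SE), limma adjusted p = 4.89e-05). Khsrp and siNT libraries overlapped for both exons, and the double lay below Khsrp knockdown by -20.4 points (limma adjusted p = 0.000119) and -20.3 points (limma adjusted p = 0.00032). The double calls held in all 11 leave-one-out fits and with the library set term (limma adjusted p = 0.00136 and 0.00194). The Fubp1 call was lost without siNT A, siNT C or Fubp1 B (limma adjusted p up to 0.0612). The 53-nt exon ends in the bases that precede the 46-nt exon below.
Scg3 53 nt: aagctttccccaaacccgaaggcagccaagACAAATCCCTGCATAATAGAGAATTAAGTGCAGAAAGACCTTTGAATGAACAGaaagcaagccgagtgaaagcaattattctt
Scg3 46 nt: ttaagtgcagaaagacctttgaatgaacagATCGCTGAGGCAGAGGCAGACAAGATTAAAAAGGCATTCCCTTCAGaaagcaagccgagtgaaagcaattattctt

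Unc13a, whose level was not called, had a 30-nt coding exon (chr8:71666641-71666670, minus strand, exon 2 of 44) with PSI of 27.5%, 32.9% and 35.6% in the siNT libraries, 17.5% and 17.2% after Fubp1, 30.1% and 24.5% after Khsrp, 23.3% and 23.5% after the double and 41.9% and 39.8% after Rbm38 knockdown on 303 to 1373 reads. It was lower after Fubp1 knockdown (-14.7 points, -12.9 points within the library set, log2 odds difference -1.14 ± 0.20 (SE), limma adjusted p = 0.0231), where both libraries lay under every other library. The call was lost without siNT B or either Fubp1 library (limma adjusted p up to 0.174).
Unc13a 30 nt: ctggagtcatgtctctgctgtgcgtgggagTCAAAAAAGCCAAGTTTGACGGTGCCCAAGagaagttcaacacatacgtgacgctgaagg

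Rims2 had the most called events, 6 exons in the double, all lower. The 78-nt coding exon (chr15:39610064-39610141, plus strand, exon 18 of 24) had PSI of 24.9%, 30.4% and 22% in the siNT libraries, 12% and 13.3% after Fubp1, 14.7% and 17.8% after Khsrp, 5.9% and 9.1% after the double and 17% and 21.6% after Rbm38 knockdown. It was also lower after Fubp1 knockdown (-13.1 points, -15 points within the library set, log2 odds difference -1.30 ± 0.24 (SE), limma adjusted p = 0.0277). In the double the difference was -18.3 points (limma adjusted p = 0.0499), kept in 1 of 11 leave-one-out fits. The 101-nt exon (chr15:39566943-39567043, plus strand, exon 20 of 27), had PSI of 96.8%, 98.7% and 96.9% in the siNT libraries, 94.3% and 93.8% after Fubp1, 95.9% and 98.5% after Khsrp, 80% and 82.7% after the double and 95.4% and 98.3% after Rbm38 knockdown, lower in the double (-16.2 points, -15.6 points within the library set, log2 odds difference -3.34 ± 0.54 (SE), limma adjusted p = 0.00248), a call that held in all 11 leave-one-out fits. The 87-nt exon was lower by -19.9 points (limma adjusted p = 0.0404) and was lost without any siNT, either double-knockdown library or Khsrp B (limma adjusted p up to 0.44). The 47-, 113- and 120-nt exons were included at 95% to 100% outside the double and at 76.1% to 89.1% in it, with differences of -22.7 points (limma adjusted p = 0.00896), -17 points (limma adjusted p = 0.00407) and -11 points (limma adjusted p = 0.00334). Each of the last 3 calls was lost without siNT C (limma adjusted p up to 0.262), the only siNT library with reads skipping those exons. The 113- and 120-nt exons share both outer splice sites and so the same skipping reads. Of these 6 exons none was called with the library set term, where adjusted p in the double ranged from 0.131 to 0.607 (limma). Rims2 was also lower in level in the double, with 63 to 393 reads per library at the 47-nt exon, lowest in the double.

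The stathmins had 3 calls in the double. The Stmn4 81-nt coding exon (chr14:66356269-66356349, plus strand, exon 4 of 8) had PSI of 20.3%, 18.5% and 25.1% in the siNT libraries, 25.6% and 23.6% after Fubp1, 20.1% and 22.9% after Khsrp, 31.2% and 36.4% after the double and 28.6% and 29.9% after Rbm38 knockdown on 526 to 2469 reads, higher in the double (12.5 points, 8.7 points within the library set, log2 odds difference 0.94 ± 0.17 (SE), limma adjusted p = 0.00505), lost without double B, where the difference was 9.8 points. The Stmn4 53-nt exon had PSI of 13.8%, 13.9% and 19.5% in the siNT libraries, 17.5% and 12.4% after Fubp1, 25.8% and 18% after Khsrp, 25.6% and 28% after the double and 16.3% and 19.2% after Rbm38 knockdown, higher by 11.1 points (limma adjusted p = 0.0478), kept in 4 of 11 leave-one-out fits (limma adjusted p up to 0.185). Both lie in the transcript whose level rose most. A 5' splice site of Stmn1 that adds 4 nt had PSI of 53.1%, 50% and 39.4% in the siNT libraries, 32.4% and 39% after Fubp1, 43.3% and 47.3% after Khsrp, 24.7% and 25.6% after the double and 53.4% and 49.9% after Rbm38 knockdown, lower in the double (-22.4 points, -14.3 points within the library set, log2 odds difference -1.42 ± 0.27 (SE), limma adjusted p = 0.00655). It was lost without double A (limma adjusted p = 0.105), and siNT C lay below siNT A and B. None of the 3 passed with the library set term (limma adjusted p = 0.313, 0.634 and 0.0817).
Stmn4 81 nt: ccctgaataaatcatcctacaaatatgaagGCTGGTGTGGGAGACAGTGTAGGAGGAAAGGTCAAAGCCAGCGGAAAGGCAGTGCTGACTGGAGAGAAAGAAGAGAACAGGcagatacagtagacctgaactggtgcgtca

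**Figure D4:**
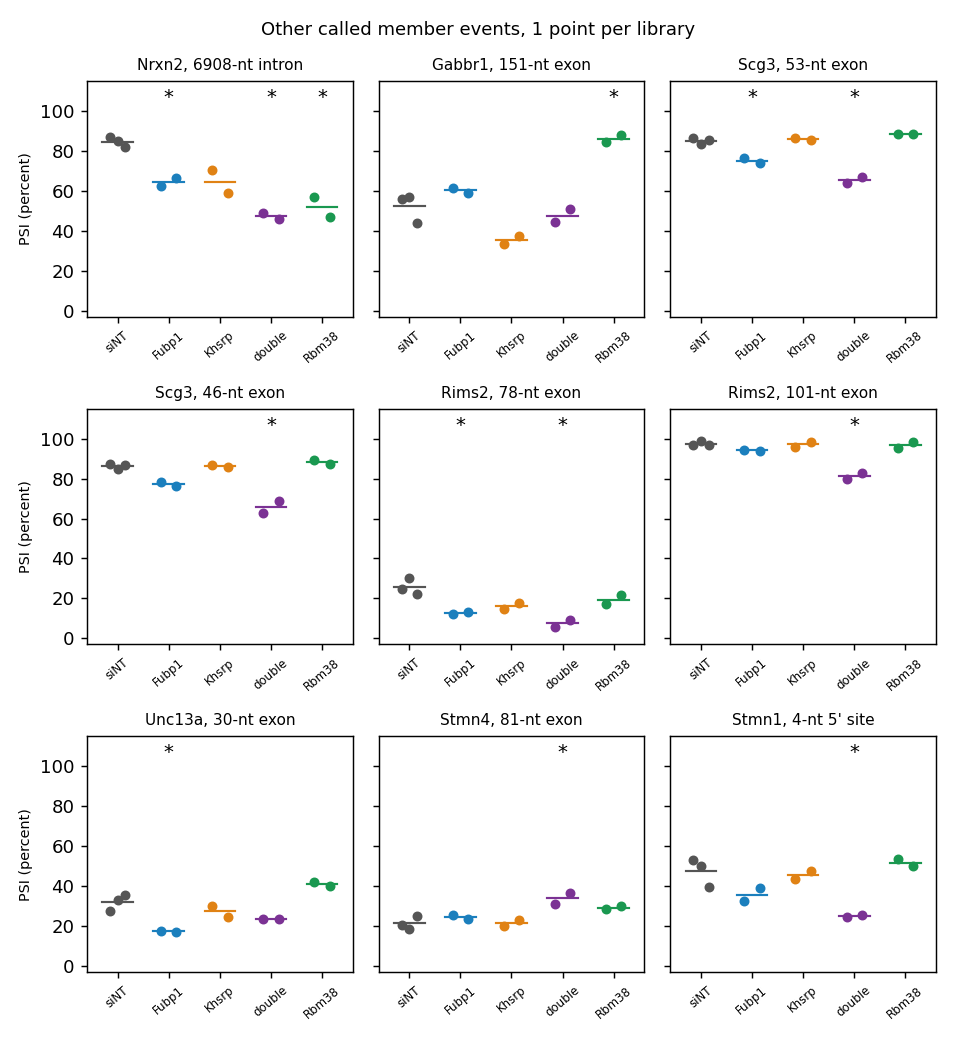
PSI in percent (y axis) of 9 other called member events in each of the 11 libraries (points, by siRNA pool on the x axis), with the group mean as a line and an asterisk for a call against siNT. The Nrxn2 intron is lower than siNT in all 4 knockdowns, the Gabbr1 exon is highest after Rbm38 knockdown at 84.4% and 87.8%, and both Scg3 exons are lowest in the double.

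Between the double and each single knockdown, 13 member events were called against Fubp1 knockdown, where 3.38% of all events were called. Of these 2 were higher and 11 lower in the double, beside 0.850% and 2.53% of all events. Against Khsrp knockdown 7 were called, where 3.68% of all events were, and 1 was higher and 6 lower, beside 0.807% and 2.87% of all events. With the library set term these were 0 (0.176% of all events) and 7 (3.72%). All Fubp1 libraries belong to the first set and all double libraries to the second, so in that fit the set rests on the siNT libraries, 2 in the first set and 1 in the second. For the Synj1 24-nt exon the siNT libraries differed little between the sets, and within them the double lay 65.9 and Fubp1 21.9 points below siNT, while the adjusted p of the double against Fubp1 with the term was 0.157 (limma). No member event departed from the sum of both single effects (limma, 0 called, 0.0931% of all events, with 23 at an unadjusted p under 0.05 and 0 without weights).

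A pair of Snap25 exons, singled out after their values were seen, differed between the double and Fubp1 knockdown without a call against siNT in the limma fit. The authors' deposited table of event calls does mark them against siNT, the upstream exon after Fubp1, Khsrp and double knockdown and the downstream exon in all 4 knockdowns. The 118-nt exons at chr2:136769743-136769860, plus strand, exon 5 of 8 and chr2:136770057-136770174, plus strand, exon 5 of 8 are the well-known alternative versions of exon 5 of the gene, of which the upstream one is used early and the downstream one in mature neurons. They are identical at 87 of 118 bases (73.7%), and capitals mark the 31 positions that differ.
Upstream exon: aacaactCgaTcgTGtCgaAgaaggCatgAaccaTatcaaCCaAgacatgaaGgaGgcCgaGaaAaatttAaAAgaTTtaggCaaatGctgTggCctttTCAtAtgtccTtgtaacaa
Downstream exon: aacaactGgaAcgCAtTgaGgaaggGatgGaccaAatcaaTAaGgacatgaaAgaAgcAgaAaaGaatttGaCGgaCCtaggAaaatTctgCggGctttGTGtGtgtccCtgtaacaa
The upstream exon had PSI of 86.4%, 85.1% and 92.9% in the siNT libraries, 78.1% and 75.8% after Fubp1, 96.7% and 95.5% after Khsrp, 95.5% and 95.8% after the double and 84.8% and 85.4% after Rbm38 knockdown, and the downstream exon 10.7%, 10.6% and 8.2% in the siNT libraries, 16.8% and 16.7% after Fubp1, 4.2% and 4.7% after Khsrp, 3% and 3.1% after the double and 15.6% and 14.3% after Rbm38 knockdown. The double exceeded Fubp1 knockdown by 18.7 points (limma adjusted p = 0.00653) for the upstream exon, and the downstream exon differed by -13.7 points (limma adjusted p = 0.00159). With the library set term neither passed (limma adjusted p = 0.102 and 0.071). Against siNT the downstream exon was higher in both Fubp1 and both Rbm38 libraries and lower in both Khsrp and both double libraries than in every siNT library. The differences were 7 points (limma adjusted p = 0.0281), 5.1 points (limma adjusted p = 0.191), -5.4 points (limma adjusted p = 0.134) and -6.8 points (limma adjusted p = 0.00739) in that order, and none reached a call. The siNT C library lay nearer to the Khsrp and double libraries for both exons.

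**Figure D5:**
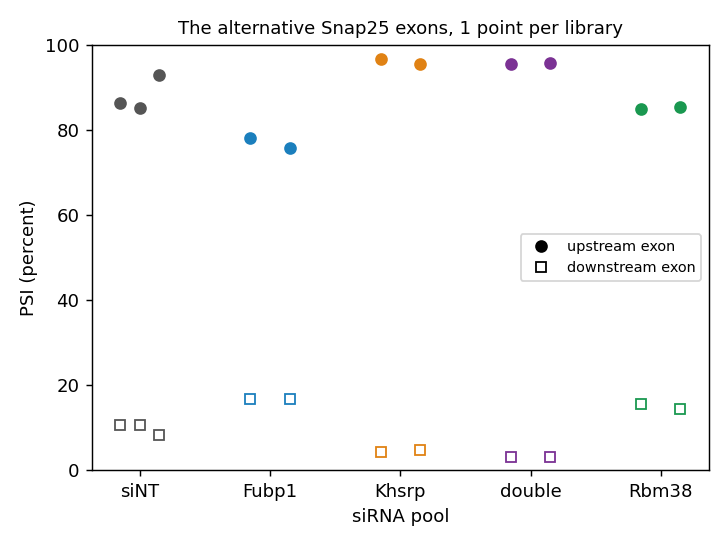
PSI in percent (y axis) of the upstream (filled circles) and downstream (open squares) 118-nt exons of Snap25 in each library, by siRNA pool (x axis). The upstream exon is at 75.8% to 78.1% after Fubp1 knockdown and at 95.5% to 96.7% after Khsrp and double knockdown, and the downstream exon moves the other way.

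Other members called between knockdowns only, again singled out after their values were seen, were a 100-nt exon of Rims2 (double minus Fubp1, -13.1 points (limma adjusted p = 0.0113)) and a 677-nt intron of Gabbr1 (-15 points (limma adjusted p = 0.0429)), the latter on as few as 14 reads in a library. In all, 21 member events in 10 genes were called against siNT in 1 or more knockdowns. The authors' deposited table of event calls has an entry for 162 of the 182 tested member events. It marks 25 of the 28 calls, and the other 3, alternative splice sites, have no entry. It also marks events not called here by limma, 22 after Fubp1, 14 after Khsrp, 25 in the double and 7 after Rbm38 knockdown. Those after Khsrp knockdown, where limma called none, include the Synj1 24-nt and both L1cam microexons, the Nrxn2 intron, the Gabbr1 151-nt exon and both Snap25 exons.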

How the data were processed

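RNA from 11 N2A libraries was sequenced by the submitters from stranded libraries of polyadenylated RNA. The submitters' processing notes name mm10, Salmon 0.14.1 and edgeR. The authors deposited 1 RPKM value per group and gene, with a log2 fold change, a p-value and an FDR of each knockdown against siNT. No values per library were used for levels, so no fit of levels was run. The deposited vast-tools table gives PSI in percent per library and a quality text with inclusion and exclusion reads, and a further deposited table gives a PSI score per group with a True or False call. The sources used here do not give the build of the splicing coordinates. They did not follow GRCm38, so exons were matched to GENCODE vM21 by exon and flanking intron length (21 of 24 named exons). The deposited PSI and the reads differed by at most 0.05 points.

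For each event 0.5 was added to both read counts and the log2 odds of inclusion were fitted in limma 3.58.1 (R 4.3.3), with binomial precision weights, 1 mean per group over all 11 libraries and an empirical Bayes trend. Events needed 10 reads in every library and a mean PSI from 1 to 99, and p-values were Benjamini-Hochberg adjusted over 60127 events. A call needed an adjusted p under 0.05 and 10 PSI points. The fit was tested on simulated data. Intervals from reads cover counting error only, as reads carry no molecular identifiers. Groups and replicate letters came from the sample descriptions, and letters did not pair samples (correlation of A minus B differences between groups from -0.0621 to 0.0577). Replicate pairs differed at a chi-square p under 0.05 in 12.3% to 19.0% of events, so no pair held the same reads. This does not tell libraries of 1 RNA sample from libraries of separate cultures. Alternatives were other weights, pseudocounts, filters, thresholds, a library set term, a replicate block and leaving out each library. All members were described. Some marker genes are not reported here. Events were named where called against siNT, at most 25 with the largest change, plus tested microexons. The members and lists were chosen with earlier results of these data known. Python 3.11.15, pandas and matplotlib prepared tables and figures.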

Additional observations from a re-analysis of the deposited data

How the results depend on the processing

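Levels rest on the authors' calls. At an FDR under 0.01 the members called were 5 higher and 5 lower after Fubp1, 0 higher and 1 lower after Khsrp, and 1 lower after Rbm38 knockdown. With an absolute log2 fold change of at least 1 they were 2 higher and 3 lower after Fubp1, 0 and 1 after Khsrp, 1 and 11 in the double and 1 and 0 after Rbm38 knockdown. Directions taken from RPKM changed for Ddc after Fubp1 (-0.07 on the log2 scale with either pseudocount) and Syp after Khsrp knockdown (-0.06 with either). Among genes at 1 RPKM or more in siNT or the knockdown, the share called was 18.2% higher and 17.2% lower after Fubp1, 6.01% and 7.05% after Khsrp, 19.5% and 21.4% in the double and 11.3% and 11.9% after Rbm38 knockdown. Centring on the median of all genes changed no direction. No library could be left out of the levels, and no library set term could be fitted to them.

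Splicing calls depended on the fit. Without weights, on either trend, member calls numbered 0 after Fubp1, 0 after Rbm38 knockdown and 4 for the double against Fubp1. Without the PSI filter they numbered 1 after Fubp1, 12 in the double, 0 after Rbm38, 5 for the double against Fubp1 and 2 against Khsrp knockdown. At 5 points Fubp1 had 7. At 15 points Fubp1 had 1, Rbm38 3 and the double against Fubp1 7. With the library set term the double had 5, Rbm38 1 and the double against Fubp1 0, and the 47-nt exon of Rims2 in that comparison turned to a log2 odds difference of 0.27 (raw difference -20.1 points). The replicate block, in which the letters do not pair samples, gave Rbm38 3 and moved no other count by over 1.5 times. Leaving out 1 library gave 0 to 6 calls after Fubp1, 0 to 1 after Khsrp, 11 to 19 in the double, 1 to 4 after Rbm38 knockdown, 5 to 14 for the double against Fubp1, 2 to 8 against Khsrp and 0 to 0 for the departure. Fubp1 had 0 without Fubp1 B and 1 without Fubp1 A, siNT A or siNT B. The double had 11 without double A. Rbm38 had 1 without siNT A, siNT B or either Rbm38 library, and 2 without either library of the other 3 knockdowns. Khsrp had 1 without siNT C or either Rbm38 library. The double against Fubp1 had 5 without Fubp1 A or double A and 8 without double B, and against Khsrp 3 without Khsrp A or double A, 4 without Khsrp B and 2 without double B. The causes were not tested. Depth limits events of genes low in the double, such as Rims2 and Synj1.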
